A study of Bos taurus with 4 samples.

Results

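The genes described here encode the enzymes and regulators of sterol and fatty acid synthesis in bovine embryos at the 8- to 16-cell stage. Of 36 listed genes, 32 had a row in a table of 14517 RefSeq transcripts, 1 row each, found by matching the RefSeq accession to its gene symbol. INSIG2, STARD4, FASN and FADS1 were not analysed here. The group was chosen from results of the same libraries that are compared below, the difference between knockdown and control embryos, of which the difference in SCD was known beforehand. Fold changes, counts and p-values of these genes are therefore a description, and they are not independent support for a change in the pathway.

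RNA was measured by poly(A) sequencing of whole Bos taurus embryos 3 days after insemination. Zygotes had received negative control small interfering RNAs (siRNAs; the controls or NC group, 2 libraries) or siRNAs that target the transcripts of KDM5A, KDM5B and KDM5C, demethylases of histone H3 (the KDM5_KD group, 2 libraries). The labels give neither the number of embryos in a library nor whether replicates came from separate collections, so p-values measure the spread between these libraries, which may be technical. The title of the second knockdown library names Kdm5, while siRNAs to KDM6 genes stand in its treatment entry, and it was grouped by its title. Values are in FPKM, fragment numbers divided by transcript length and by library size, so levels can be compared between genes of different length.

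KDM5A was listed at 28.4 and 27.1 FPKM in NC replicates 1 and 2 and at 10.5 and 10.1 FPKM in replicates 1 and 2 of KDM5_KD. KDM5C was at 28.1 and 40.6 FPKM against 15.1 and 17.8 FPKM, and KDM6A at 7.63 and 11.3 FPKM against 7.90 and 9.29 FPKM. Both knockdown libraries were thus low in KDM5A and KDM5C, the one with the conflicting entry included, while the groups overlapped for KDM6A. The adjusted p in limma was 0.0333 for KDM5A and 0.123 for KDM5C. KDM5B and KDM6B were not analysed here. The oocyte and early embryo marker list, with 12 of its 16 genes in the table, summed to between 468 and 827 FPKM in the 4 libraries. The sperm marker list, with 5 of 5 genes in the table, summed to at most 1.35 FPKM. Between 8427 and 9160 transcripts were at 1 FPKM or more in a library.

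Cells build cholesterol from acetyl-CoA through mevalonate, farnesyl diphosphate, squalene and lanosterol, and fatty acids from the same precursor through malonyl-CoA. Most of these enzymes are under the transcription factors SREBP1 and SREBP2 (genes SREBF1 and SREBF2), which the escort protein SCAP carries to the Golgi for activation when sterols are scarce and which INSIG proteins hold in the endoplasmic reticulum when sterols are plentiful. Bovine oocytes and early embryos are rich in lipid droplets, and mouse oocytes make little cholesterol themselves and depend on the cumulus cells around them for it.

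Most of the group was higher in the knockdown embryos. In 25 of the 32 genes (78.1%) both KDM5_KD libraries lay above both NC libraries, where 35.1% of all 8970 transcripts tested did so, and MVK was the 1 gene (3.12%) with both below, against 15.6% of all. The median log2 fold change of the 32 genes was 0.75, on the log2(FPKM + 1) scale that is used for every log2 value here, and that of all transcripts was 0.09. This scale understates the change of genes at low levels. The log2 fold change was at least 1 for 11 of 32 genes (34.4%), against 4.52% of all transcripts, and the ratio of mean FPKM was at least 2 for 14 genes (43.8%), against 8.33%. HSD17B7, INSIG1 and ME1 are the genes that the ratio adds. HMGCS1, FDPS and SCD rose past the threshold of an adjusted p of 0.05 in limma's test over the whole table, which is 3 of 32 genes (9.38%) beside 0.279% of all transcripts. An unadjusted p under 0.05 was reached by 22 of the 32 genes and by 17.5% of all transcripts. Because the genes were chosen from this contrast, nothing is read from these shares.

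All 32 rows passed the filter of a mean of at least 1 FPKM over the 4 libraries. ME1 and HSD17B7 had NC means under that level and passed through their knockdown values. After quantile normalization, which moved the median of all transcripts by -0.14, the number of genes with a log2 fold change of at least 1 was 7. The number past the threshold was 12 when NC replicate 1 was left out and 0 when either knockdown library was left out (limma, with 18 or 19 of the genes at an unadjusted p under 0.05).

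**Figure D1:**
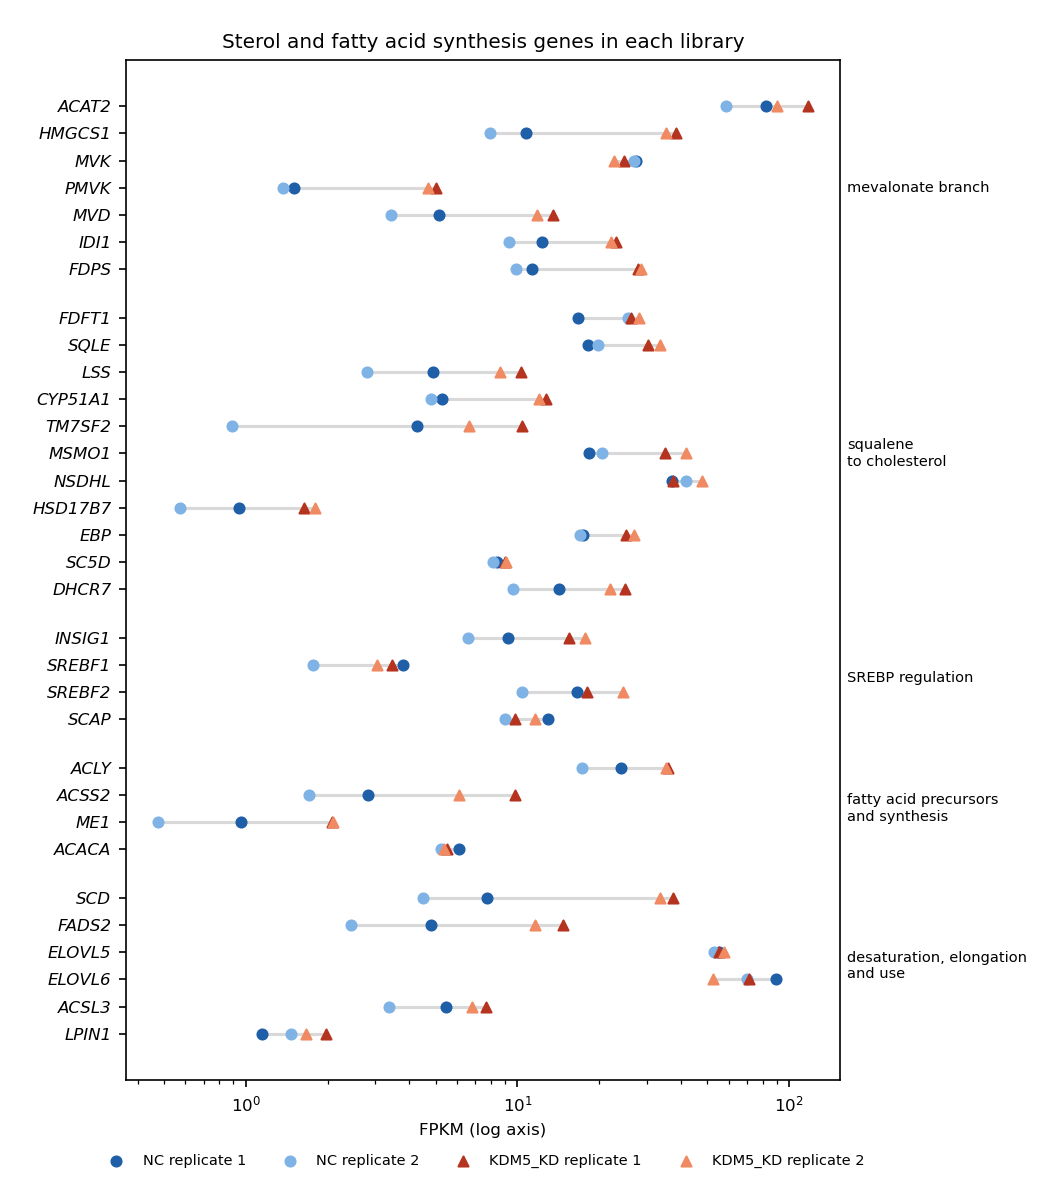
Level of each of the 32 genes in each library, in FPKM on a log axis, with circles for the NC libraries and triangles for the KDM5_KD libraries and genes arranged by their role. Triangles lie to the right of both circles for 25 genes, with the widest separation at SCD and HMGCS1, while MVK has both triangles to the left and NSDHL, SREBF1, SCAP, ACACA, ELOVL5 and ELOVL6 overlap.

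Markers of the cumulus and granulosa cells that surround the oocyte were also higher in the knockdown libraries. Their 19 genes summed to 35.7 and 20.4 FPKM in NC replicates 1 and 2 and to 59.1 FPKM in each of the KDM5_KD libraries. Of the 12 that were tested, 10 had both knockdown libraries above both NC libraries, against 35.1% of all transcripts. The median log2 fold change of the 12 was 0.96. None of the 12 passed the threshold in limma, with 8 at an unadjusted p under 0.05, against 17.5% of all transcripts. VCAN, GREM1 and INHA had NC means of 0.668, 0.572 and 0.842 FPKM and passed the filter only through their knockdown values. The largest differences were those of VCAN (0.811 and 0.524 FPKM against 3.93 and 2.71 FPKM), GREM1, INHA, CYP11A1 and HSD3B1, with log2 fold changes between 1.01 and 1.36.

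Among the defining genes of hormone-producing follicle cells in this list, CYP17A1, which belongs to theca rather than granulosa cells, was listed at 0 in every library. FSHR and LHCGR, the gonadotropin receptors, were listed at 0 in both NC libraries and at no more than 0.0443 FPKM in the knockdown libraries, and CYP19A1, the aromatase, at no more than 0.0602 FPKM in any library. Other genes of the list had more RNA. STAR, at 8.40 and 5.15 FPKM in the controls and 9.22 and 10.2 FPKM after knockdown, lay above both NC libraries. So did NR5A1 (1.79 and 0.599 FPKM against 2.45 and 2.30 FPKM). AMH (2.77 and 1.12 FPKM against 1.28 and 0.957 FPKM) and TNFAIP6 (1.21 and 1.31 FPKM against 1.10 and 1.26 FPKM) overlapped between groups. The part of cumulus and granulosa cells in the sterol and fatty acid values was not tested. In whole embryos, fewer cells of a type and less RNA per cell cannot be told apart.

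The control libraries differed from each other in the same direction for both lists, and for the oocyte and early embryo markers too. NC replicate 1 exceeded NC replicate 2 for 27 of the 32 sterol and fatty acid genes (84.4%) and for 11 of the 12 cumulus markers tested (91.7%), against 55.8% of all transcripts. The share was 84.6% for the oocyte and early embryo markers (11 of 13) and 40% for the genome activation and lineage markers. The median gap between the NC libraries, without regard to sign, was 0.40 on the log2 scale for the 32 genes and 0.22 for all transcripts. Between the knockdown libraries it was 0.15 and 0.18. For 26 of the 32 genes the difference between groups was larger than the gap between the NC libraries, as it was for 4537 of all 8970 transcripts tested. SQLE, MSMO1, FDFT1, NSDHL and LPIN1 were the genes with more RNA in NC replicate 2. That library had the lower NC sum of cumulus markers and also of oocyte and early embryo markers.

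**Figure D2:**
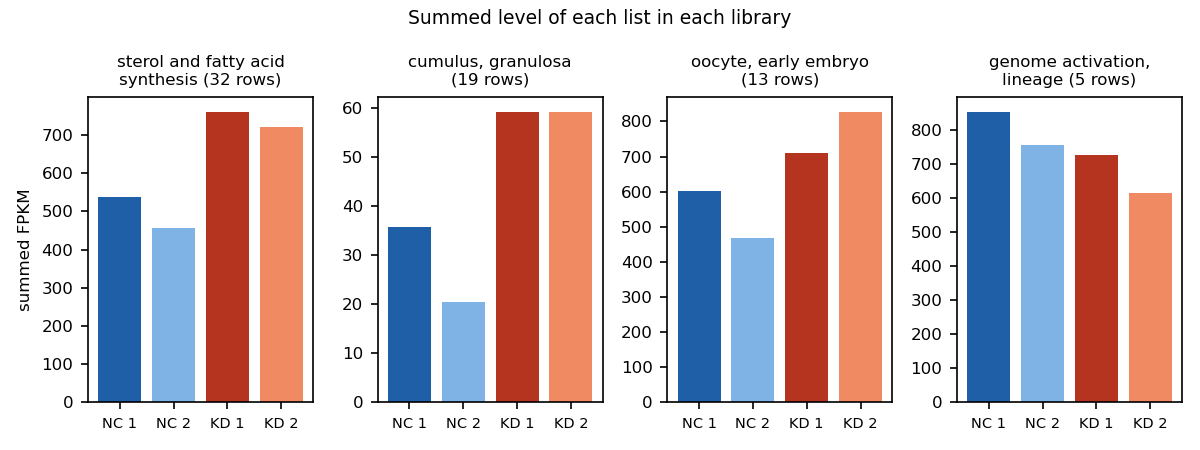
Summed FPKM of 4 lists of genes in each library, on linear axes that start at 0 and differ between panels, with NC libraries in blue and KDM5_KD libraries in red. Sums of the sterol and fatty acid genes are 537 and 456 FPKM in NC and 761 and 722 FPKM after knockdown. Those of the oocyte and early embryo markers are 600 and 468 FPKM in NC and 710 and 827 FPKM after knockdown. These 2 lists and the cumulus and granulosa markers are each lowest in NC replicate 2 and highest in the knockdown libraries. The genome activation and lineage markers, 5 of 9 listed genes, run from 852 FPKM in NC replicate 1 to 615 FPKM in replicate 2 of KDM5_KD. KLF4 makes up most of these sums, with 606 and 517 FPKM in NC and 507 and 422 FPKM after knockdown. SOX2, KLF4 and KLF5 lie below both NC libraries, while NANOG and POU5F1 overlap between groups.

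The mevalonate branch, which leads from acetyl-CoA to farnesyl diphosphate, had 6 of its 7 genes above both NC libraries and 5 of 7 with a log2 fold change of at least 1, with a median log2 fold change of 1.26. ACAT2, the cytosolic thiolase that joins 2 acetyl-CoA molecules, was the most abundant of the 7 and had 82.4 and 58.6 FPKM in the controls against 116.9 and 90.03 FPKM after knockdown. Its higher NC value lay close to its lower knockdown value, and its log2 fold change was 0.56 (SE 0.207). The gene overlaps TCP1 in the annotation, and since the protocol states no strand-specific counting, reads from the overlap cannot be told apart.

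HMGCS1 (NM_001206578), which makes HMG-CoA from acetoacetyl-CoA, was at 10.7 and 7.94 FPKM in the controls and at 38.4 and 35.1 FPKM after knockdown. Group means were 9.34 ± 1.98 and 36.8 ± 2.34 FPKM (SD, n = 2 each), a ratio of 3.94 and a log2 fold change of 1.88 with an SE of 0.181 (adjusted p in limma, 0.0310). The lower knockdown value was 3.27 times the higher NC value.

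MVK and PMVK add the first and the second phosphate to mevalonate, and their knockdown values lay on opposite sides of the controls. MVK had 27.3 and 26.8 FPKM in the controls and 24.6 and 22.6 FPKM after knockdown, a log2 fold change of -0.19 with an SE of 0.133 (adjusted p in limma, 0.511). PMVK had 1.51 and 1.37 FPKM in the controls and 5.03 and 4.69 FPKM after knockdown, a ratio of means of 3.37 and a log2 fold change of 1.26 with an SE of 0.196 (adjusted p in limma, 0.0946). HMGCS1 thus stood at 0.393 and 0.296 times the level of MVK in the NC libraries and at 1.56 and 1.55 times that level in the knockdown libraries.

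MVD, the decarboxylase that yields isopentenyl diphosphate, was at 5.14 and 3.44 FPKM in the controls and at 13.6 and 11.8 FPKM after knockdown. IDI1, the isomerase of that product, was at 12.3 and 9.33 FPKM against 23.1 and 22.1 FPKM. FDPS (NM_177497), the farnesyl diphosphate synthase, was at 11.3 and 9.85 FPKM against 27.9 and 28.4 FPKM. No gene of the 3 overlapped between groups, and the knockdown libraries lay closer together than the NC libraries for each on the log2 scale. FDPS went from 10.6 ± 1.04 to 28.2 ± 0.405 FPKM (SD, n = 2 each), a log2 fold change of 1.33 with an SE of 0.150 (adjusted p in limma, 0.0419). MVD and IDI1 differed by 1.39 and 1.01 on the log2 scale, with adjusted p of 0.0953 and 0.106 in limma.

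The calls of HMGCS1 and FDPS ended when transcripts were not filtered (adjusted p in limma of 0.197 for both), with eBayes without a trend (0.0605 and 0.0739) and without KDM5_KD replicate 1 (0.148 and 0.210) or replicate 2 (0.141 and 0.267). That of FDPS also ended with a pseudocount of 0.1 (adjusted p in limma of 0.0511), without NC replicate 2 (0.0625) and under the replicate block (0.0591).

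The steps from farnesyl diphosphate to cholesterol are covered by 11 genes, of which 10 lay above both NC libraries and 3 had a log2 fold change of at least 1 (4 a ratio of mean FPKM of at least 2), with a median of 0.72. None passed the threshold in limma, with 8 of the 11 at an unadjusted p under 0.05. FDFT1, the squalene synthase, had 16.7 and 25.6 FPKM in the controls against 26.2 and 28.1 FPKM after knockdown, so that NC replicate 2 nearly reached the knockdown values. SQLE, the monooxygenase that oxidises squalene, had 18.2 and 19.8 FPKM against 30.4 and 33.4 FPKM. LSS, which closes the ring system to give lanosterol, had 4.90 and 2.79 FPKM against 10.3 and 8.60 FPKM. The differences of SQLE and LSS, 0.72 and 1.14 on the log2 scale, were larger than the gap between the NC libraries, whereas that of FDFT1, 0.38, was smaller than its gap of -0.59 (NC replicate 1 minus replicate 2).

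CYP51A1, the cytochrome P450 that demethylates lanosterol, had 5.28 and 4.79 FPKM in the controls and 12.7 and 12.0 FPKM after knockdown, a log2 fold change of 1.15 with an SE of 0.173 (adjusted p in limma, 0.0909). TM7SF2, a sterol reductase, had 4.27 and 0.892 FPKM in the controls and 10.4 and 6.61 FPKM after knockdown. The spread differed between these genes. The 2 values of CYP51A1 in each group were close together, while TM7SF2 had the widest gap between NC libraries of all 32 genes, 1.48 on the log2 scale, against a log2 fold change of 1.56 with an SE of 0.493 (adjusted p in limma, 0.205).

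MSMO1, NSDHL and HSD17B7 together remove methyl groups from the sterol ring. MSMO1, the oxidase, had 18.4 and 20.5 FPKM in the controls and 34.8 and 41.8 FPKM after knockdown. NSDHL, the dehydrogenase, had 37.1 and 41.8 FPKM against 37.4 and 47.9 FPKM. HSD17B7, the reductase, had 0.948 and 0.574 FPKM against 1.64 and 1.80 FPKM, the lowest level of the sterol enzymes. Within this complex NSDHL alone overlapped between groups, with a log2 fold change of 0.10 (SE 0.163) whose sign turned to -0.01 under median-ratio scaling and to -0.07 without KDM5_KD replicate 2. MSMO1 and HSD17B7 had log2 fold changes of 0.94 and 0.63.

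EBP, the sterol isomerase, had 17.5 and 16.9 FPKM in the controls and 25.1 and 26.9 FPKM after knockdown. SC5D, the desaturase after it, had 8.42 and 8.13 FPKM against 9.03 and 9.06 FPKM. DHCR7, a reductase of the final steps, had 14.2 and 9.64 FPKM against 25.0 and 22.0 FPKM. The log2 fold changes of EBP, SC5D and DHCR7 were 0.57, 0.12 and 0.94, and that of SC5D turned to -0.08 after quantile normalization.

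Taking the 18 sterol enzymes as a whole, 16 lay above both NC libraries, 8 had a log2 fold change of at least 1 and 9 a ratio of mean FPKM of at least 2, and the median log2 fold change was 0.94. The abundance of these enzymes differed by 92.6 times between ACAT2 and HSD17B7 in NC and by 60.2 times in KDM5_KD. The genes with the smallest differences were not confined to one level, since NSDHL and MVK were among the most abundant and SC5D was not.

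**Figure D3:**
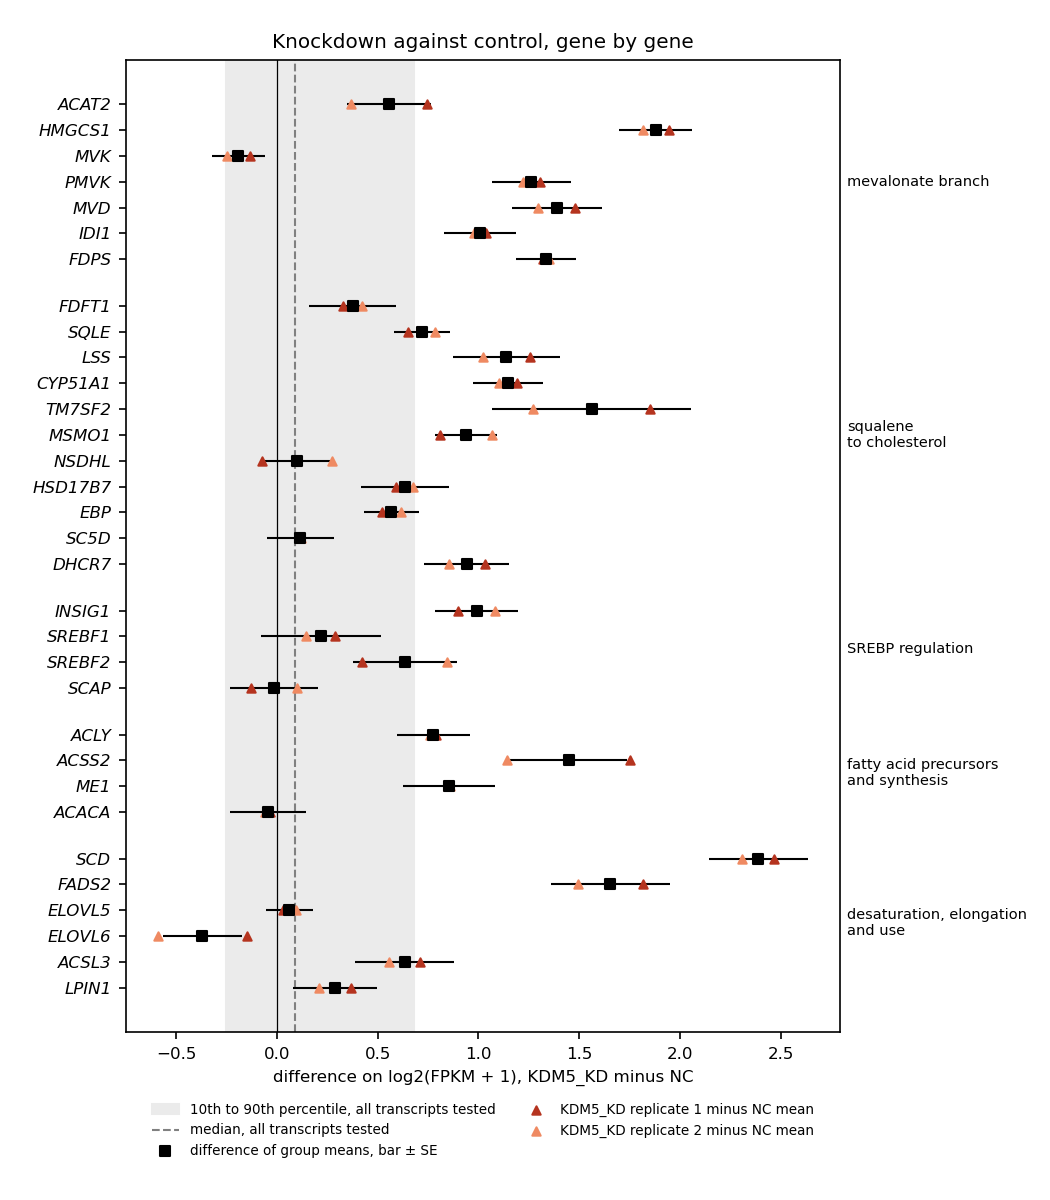
Difference between KDM5_KD and NC for each of the 32 genes on the log2(FPKM + 1) scale, with squares for the difference of group means, bars for ± 1 SE of the limma fit and triangles for each knockdown library minus the NC mean. The grey band runs from the 10th to the 90th percentile of all transcripts tested, -0.25 to 0.68, and the dashed line marks their median of 0.09. SCD (2.39) and HMGCS1 (1.88) lie farthest to the right, and ELOVL6 (-0.37) farthest to the left.

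The regulators were less uniform, with 2 of 4 genes above both NC libraries and none with a log2 fold change of at least 1, though the ratio of mean FPKM was 2.09 for INSIG1. INSIG1, the retention protein, which is itself a target of SREBP, had 9.26 and 6.57 FPKM in the controls and 15.4 and 17.7 FPKM after knockdown, a log2 fold change of 0.99 with an SE of 0.207 (adjusted p in limma, 0.123). SREBF2, which encodes the factor that mainly drives sterol genes, had 16.6 and 10.4 FPKM against 18.0 and 24.4 FPKM, a log2 fold change of 0.63 with an SE of 0.259 (adjusted p in limma, 0.285). Its gap between NC libraries was 0.62 on the same scale, about the size of the difference between groups.

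SREBF1, which encodes the factor that mainly drives fatty acid genes, had 3.78 and 1.77 FPKM in the controls and 3.45 and 3.03 FPKM after knockdown. SCAP, the escort protein, had 12.9 and 8.99 FPKM against 9.80 and 11.6 FPKM. In both genes the knockdown values lay between the NC values, and the log2 fold changes of 0.22 (SE 0.30) and -0.01 (SE 0.219) were within the spread between replicates. Their signs depended on the library set: SREBF1 was at -0.18 without NC replicate 2, and SCAP at 0.23 without NC replicate 1. SREBF1 overlaps RAI1 in the annotation, and reads from the overlap cannot be told apart.

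Fatty acid synthesis starts with enzymes that supply acetyl-CoA and NADPH, and 3 of the 4 genes of this branch in the table lay above both NC libraries. ACLY, which splits citrate into acetyl-CoA, had 24.0 and 17.3 FPKM in the controls and 35.9 and 35.2 FPKM after knockdown. ACSS2, which makes acetyl-CoA from acetate, the main carbon source for fatty acids in ruminant tissues, had 2.81 and 1.70 FPKM against 9.81 and 6.09 FPKM. ME1, the malic enzyme that yields NADPH, had 0.962 and 0.477 FPKM against 2.07 and 2.09 FPKM. The log2 fold changes were 0.78 (SE 0.182), 1.45 (SE 0.292) and 0.85 (SE 0.229), and none of the 3 passed the threshold in limma (adjusted p between 0.117 and 0.163).

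ACACA, the carboxylase that commits acetyl-CoA to fatty acids, differed from these suppliers. Its 6.09 and 5.24 FPKM in the controls enclosed the 5.50 and 5.38 FPKM after knockdown, and the log2 fold change was -0.05 (SE 0.188, adjusted p in limma of 0.926), turning to 0.05 without NC replicate 1. The gene overlaps C19H17orf78 in the annotation, and reads from the overlap cannot be told apart.

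SCD (NM_173959), which puts the first double bond into saturated fatty acids, had the largest difference of the 32 genes, at rank 21 of 8970 transcripts by log2 fold change. It was at 7.74 and 4.51 FPKM in the controls and at 37.4 and 33.4 FPKM after knockdown, so the lower knockdown value was 4.31 times the higher NC value. Its ratio of group means was 5.78 and its log2 fold change 2.39 (SE 0.244, adjusted p in limma of 0.0333). SCD stood at 1.27 and 0.860 times the level of ACACA in the NC libraries and at 6.79 and 6.20 times that level in the knockdown libraries. Its call ended without a filter (adjusted p in limma of 0.223), with eBayes without a trend (0.0605) and without either knockdown library (0.148 and 0.141).

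FADS2, the first desaturase in the making of polyunsaturated fatty acids, had 4.81 and 2.43 FPKM in the controls and 14.7 and 11.6 FPKM after knockdown, a ratio of means of 3.63 and a log2 fold change of 1.65 with an SE of 0.293 (adjusted p in limma, 0.106). It overlaps its paralog FADS1 in the annotation, and reads from the overlap cannot be told apart. The elongases that act beside the desaturases did not share this difference. ELOVL5 had 55.4 and 52.9 FPKM in the controls and 55.3 and 57.8 FPKM after knockdown, and ELOVL6, which lengthens saturated chains, had 89.5 and 69.9 FPKM against 71.1 and 52.3 FPKM. The groups overlapped in each gene, with log2 fold changes of 0.06 (SE 0.117) and -0.37 (SE 0.196), and that of ELOVL5 turned to -0.05 under median-ratio scaling.

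ACSL3, which activates fatty acids with coenzyme A, had 5.46 and 3.36 FPKM in the controls and 7.67 and 6.81 FPKM after knockdown. LPIN1, a phosphatase on the way to triglycerides, had 1.15 and 1.47 FPKM against 1.97 and 1.66 FPKM. Both lay above the NC libraries by a small margin, with log2 fold changes of 0.63 (SE 0.246) and 0.29 (SE 0.209), and that of LPIN1 turned to -0.01 after quantile normalization. Over the 10 fatty acid genes, 7 lay above both NC libraries, 3 had a log2 fold change of at least 1 and 4 a ratio of mean FPKM of at least 2, and the median log2 fold change was 0.70.

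Differences varied with level over the whole table. Transcripts at low levels had the larger ones, with median log2 fold changes of 0.25, 0.16, 0.06 and -0.02 from the lowest to the highest of 4 equal classes of mean FPKM. Of the 32 genes, 5, 9, 13 and 5 fell into these classes, and 26 of 32 were above the median of their own class. Among the log2 fold changes of all transcripts, 17 of the 32 were in the top 10%.

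Each knockdown library on its own lay on the same side of the NC mean for 30 of the 32 genes, NSDHL and SCAP being the exceptions. For the 25 genes above both NC libraries and for MVK this follows from the lack of overlap already given. The share over all transcripts was not computed, and nothing is read from the count. With KDM5_KD replicate 1 alone the median log2 fold change of the group was 0.77 and with replicate 2 alone it was 0.81, the latter being the library whose treatment entry names KDM6. Against NC replicate 2 alone the median was 0.93 and against NC replicate 1 alone it was 0.66. The largest gap between knockdown libraries was 0.61, in ACSS2.

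Other genes of lipid handling were taken from lists built by function. Of all 8970 transcripts tested, 35.1% were above both NC libraries, 15.6% were below both and 17.5% had an unadjusted p under 0.05 in limma. The counts of each list stand beside these shares. In the sterol uptake and lipid droplet lists, some transcripts had NC means under 1 FPKM and passed the filter through their knockdown values. In the list of sterol uptake, efflux and storage, 14 of 22 transcripts tested were above both NC libraries and 3 below, with a median log2 fold change of 0.46. APOE, a lipoprotein component, had 2.64 and 0.681 FPKM in the controls and 6.15 and 6.75 FPKM after knockdown, a log2 fold change of 1.59 with an SE of 0.375 (adjusted p in limma, 0.139). No transcript of this list passed the threshold in limma, with 11 at an unadjusted p under 0.05.

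Fatty acid uptake, activation and elongation was represented by 14 transcripts tested, of which 8 were above and 2 below both NC libraries, with a median of 0.46. ELOVL1, an elongase of very long chains, had 7.62 and 3.64 FPKM in the controls against 16.1 and 12.7 FPKM after knockdown, and FADS3, a relative of FADS2, had 2.20 and 0.680 FPKM against 5.51 and 4.11 FPKM. For the lipid droplet and triglyceride list the count was 8 above and 3 below of 16, with a median of 0.24. PLIN3, a droplet coat protein, was the only one of these 16 with a log2 fold change of at least 1 (2.51 and 1.15 FPKM against 3.93 and 5.91 FPKM). AGPAT2 was among the 3 below, with 12.5 and 23.8 FPKM in the controls against 6.31 and 10.5 FPKM after knockdown. Its ratio of mean FPKM was 0.465 and its log2 fold change -0.99 (adjusted p in limma, 0.237).

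Genes of fatty acid oxidation numbered 13 above and 2 below of 24, with a median of 0.24. ETFA, a carrier of electrons from that pathway, was the only one with a log2 fold change of at least 1 (3.35 and 2.11 FPKM against 5.70 and 7.50 FPKM), while 3 of the 24 had a ratio of mean FPKM of at least 2. The isoprenoid and dolichol branches, which use farnesyl diphosphate for other products, had 4 above and 1 below of 11 and a median of 0.07, with no transcript at a log2 fold change of at least 1. None of these 4 lists held a transcript past the threshold in limma, and 6 of 14, 3 of 16, 5 of 24 and 2 of 11 transcripts had an unadjusted p under 0.05, in the order given. The last 3 of these shares are near the 17.5% of all transcripts. The 4 of 11 above both NC libraries in the isoprenoid and dolichol list is likewise near the 35.1% of all transcripts. The markers of oocytes and early embryos had 6 of 13 transcripts above both NC libraries and a median of 0.41, and the genome activation and lineage markers 0 of 5 above, 3 below and a median of -0.20. Only 5 of the 9 genes listed as genome activation and lineage markers had a row, NANOG, POU5F1, SOX2, KLF4 and KLF5. KLF17, ZSCAN4, DUXA and LEUTX were not analysed here. No difference between these lists and the sterol and fatty acid genes was tested.

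**Figure D4:**
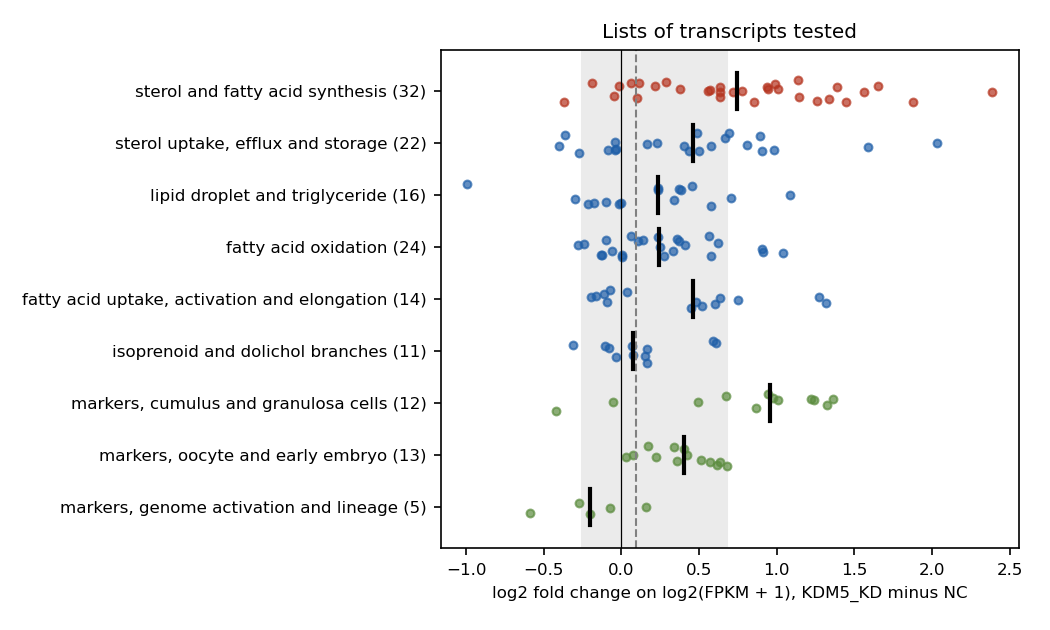
Log2 fold change between KDM5_KD and NC of every transcript tested in 9 lists, with points jittered vertically, black bars for list medians and the number of transcripts in parentheses. The grey band runs from the 10th to the 90th percentile of all transcripts and the dashed line marks their median. The sterol and fatty acid genes (median 0.75) and the cumulus and granulosa markers (0.96) have the medians farthest to the right, and the isoprenoid branches (0.07) lie next to the median of all transcripts. VCAN, GREM1 and INHA of the cumulus and granulosa markers, and ME1 and HSD17B7 of the sterol and fatty acid genes, passed the filter only through their knockdown values.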

How the data were processed

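The authors deposited FPKM per RefSeq transcript for 4 libraries, with no pooled column. The submitters' processing notes name Trimmomatic, HISAT2, featureCounts and Cufflinks, without versions. The genome build is not given in the sources used here. Symbols came from a RefSeq table of the assembly ARS-UCD2.0 (14295 of 14517 accessions matched), and overlapping genes were read from it. The files hold no read counts, and no detection limit is given. From the commonest ratio of values between 0.001 and 0.3 FPKM, NC replicate 1 had 0.683 times, and the knockdown libraries 0.803 and 0.782 times, the depth of NC replicate 2.

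The 8970 transcripts with a mean of at least 1 FPKM were tested across all genes on the log2(FPKM + 1) scale by limma 3.58.1 under R 4.3.3 (eBayes with a trend, no covariates, Benjamini-Hochberg adjustment) and the script was tested on simulated data. Figures were drawn with matplotlib 3.10.9. The genes and the lists were chosen with earlier results of these data known. Every listed gene with a row is named. Of the other lists, those past the threshold or with a difference of at least 1 on the log2 scale and no overlap between groups are named. KDM5A, KDM5C, KDM6A, AGPAT2, the genome activation and lineage genes and further genes of the cumulus and granulosa list are named beside them. Some genes that this rule would name are not reported here. Alternatives were another pseudocount, other filters, 2 scalings, eBayes without a trend or robust, a replicate block, and leaving out each library. Their use on the counts of genes with a log2 fold change of at least 1 or above both NC libraries was chosen after seeing the data. Promoter motifs were planned but no sequences were used here.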

Additional observations from a re-analysis of the deposited data

How the results depend on the processing

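Of the 32 genes, 3 passed the threshold in limma. The count was 2 with a pseudocount of 0.1 and 0 without a filter or with eBayes without a trend, where 19 and 20 genes had an unadjusted p under 0.05. Over all transcripts, 25 calls became 3 without a filter, 12 with eBayes without a trend and 46 with robust eBayes. With the replicate number as a block they became 12, and the 32 genes kept the calls of HMGCS1 and SCD while FDPS had an adjusted p of 0.0591. Libraries of the same number had deviations from their group means that correlated at 0.229, but with 2 pairs and no label tying them the numbers are not taken to pair the samples.

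Leaving out 1 library at a time gave between 6 and 340 calls over all transcripts and between 0 and 12 among the 32 genes. Both upper ends came from leaving out NC replicate 1, and the fit then assumes that the lone library of an arm varies like the other group. The median log2 fold change of the 32 genes lay between 0.66 and 0.93 in these fits and the number with a log2 fold change of at least 1 between 9 and 15. The number of genes with every knockdown library kept above every NC library kept was 29 and 26 without NC replicate 1 or 2, where 1 NC library is left to exceed, and 27 and 25 without knockdown replicate 1 or 2. Quantile normalization left 7 genes with a log2 fold change of at least 1, and a pseudocount of 0.1 gave 14.

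Signs turned for NSDHL (-0.0090) and ELOVL5 (-0.049) under median-ratio scaling and for SC5D (-0.081), SREBF1 (-0.072) and LPIN1 (-0.014) after quantile normalization. The median over all transcripts shifted by -0.10 and -0.14 with these scalings. With 1 library left out, NSDHL ranged from -0.074 to 0.28, SREBF1 from -0.18 to 0.61, SCAP from -0.25 to 0.23 and ACACA from -0.14 to 0.046. The causes were not tested. With all libraries, 238 of the 251 comparisons of single genes with an alternative kept direction and side of the threshold, 8 lost the threshold and 5 turned. Only HMGCS1, FDPS and SCD could lose it, and they kept it in 6, 4 and 6 of 8 alternatives. Most of the 238 come from the 29 genes that were not past the threshold, so that count says little about stability. With 1 library left out, 5 of 128 comparisons turned.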
